A study of Mus musculus with 9 samples.

Results

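The genes described here mark GABAergic interneurons of the hippocampus, together with the neuropeptides and calcium-binding proteins by which these cells are told apart. They are Gad1, Gad2, Sst, Npy, Vip, Cck, Pvalb, Calb1, Calb2 and Reln, and they were found on the array by gene name, control spots left out. The 10 genes had 11 probes among the 39429 on the array, 2 of them for Pvalb, and all 11 passed the filter on dim probes. The measurement was a one-colour Agilent expression array of hippocampal RNA from male mice of the C57BL/6J strain at 9 months of age, with 3 mice in each of 3 genotypes and 1 array per mouse. IF1, encoded by Atp5if1 and named Atpif1 on the array, is the protein that inhibits the mitochondrial ATP synthase. In IF1-KO mice a floxed Atp5if1 allele was deleted by Cre under the Camk2a promoter, in IF1-TG mice human IF1 was placed under a tetracycline-regulated element driven by a Camk2a transactivator, and CRL mice were the controls, whose alleles are not stated for these arrays in the sources used here. The Camk2a promoter is active mostly in excitatory neurons of the forebrain, so both manipulations were directed mainly at cells other than interneurons, and both began in early postnatal life.

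Interneurons are a minority of hippocampal neurons and release GABA, which Gad1 and Gad2 synthesize from glutamate. Parvalbumin cells, many of them basket cells, inhibit the cell bodies of pyramidal neurons, whereas somatostatin cells, many of which also contain neuropeptide Y, inhibit their dendrites. Cells with cholecystokinin or vasoactive intestinal peptide form further classes, and reelin is made in the adult hippocampus by subsets of interneurons and by Cajal-Retzius cells. Several of the genes are not confined to interneurons. Calb1 (calbindin) is abundant in dentate granule cells, Calb2 (calretinin) in hilar mossy cells of the mouse, and Cck in pyramidal cells. In RNA of a whole hippocampus, fewer cells of a type and less RNA per cell cannot be told apart.

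The array read these transcripts through probes of 60 bases, given here because the results of Pvalb differ between its probes and because the position of a probe decides which stretch of the transcript was read. Npy, Calb2 and Reln probes are printed whole and the others as a stretch of 30 bases, 5′ to 3′ in lower case, with capitals for AATAAA or ATTAAA, the letters of a polyadenylation signal.
Gad1, bases 1 to 30: gagtgcccttaacataatgatttgaacata
Gad2, bases 1 to 30: agtaacaggacaaagaagcaaaaacatcaa
Sst, bases 1 to 30: aagacattcacatcctgttagctttaatat
Npy, bases 1 to 60: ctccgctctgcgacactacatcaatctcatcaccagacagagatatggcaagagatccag
Vip, bases 1 to 30: ggataaaagagatatgtggcaaaaggattt
Cck, bases 23 to 52: tgttgctatgctATTAAAgagatttccttc
Pvalb, brighter probe, bases 1 to 30: agtttgtttgtgttattttttactccccca
Pvalb, dimmer probe, bases 1 to 30: ctccaatgacactctatcaattgcttttga
Calb1, bases 31 to 60: tttaaagattagccaacAATAAAtcctaga
Calb2, bases 1 to 60: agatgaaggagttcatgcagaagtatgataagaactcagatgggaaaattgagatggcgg
Reln, bases 1 to 60: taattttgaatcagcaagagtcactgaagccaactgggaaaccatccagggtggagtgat
By the deposited annotation on mm9, the probes lie at chr2:70439699-70439758 (Gad1, plus strand), chr2:22549095-22549154 (Gad2, plus strand), chr16:23889776-23889835 (Sst, minus strand) and chr9:121398943-121399002 (Cck, minus strand). Calb1 lies at chr4:15833582-15833641 (plus strand), Calb2 at chr8:112678555-112678614 (minus strand) and Reln at chr5:21404915-21404974 (minus strand), and the annotation places the Npy probe nowhere. The Vip probe is given at chr10:4699238-4699297 on the minus strand, whereas RefSeq on GRCm38.p6 has the gene on the plus strand, and with no genome of either build used here the match of this probe to the Vip transcript rests on the annotation alone. Both Pvalb probes map to the minus strand, the brighter at chr15:78021951-78022010 and the dimmer at chr15:78021549-78021608, so 342 bases separate them and the dimmer probe reads nearer the 3′ end. AATAAA or ATTAAA occurred in 2 of the 11 probes and in 16.7% of all 39429 probes.

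Values are log2 processed intensities after subtraction of each array's own 75th percentile, so a value of a gene is compared between arrays and not with that of another gene. Probes were kept where they were well above background, a mark set by the scanner software, on all 3 arrays of at least 1 genotype. All 11 probes of these genes were well above background on every array that measured them, and none was saturated. Calb1, Calb2 and Reln were dim, with processed intensities of 38.8 to 290, 66.9 to 385 and 88.6 to 199. The lowest intensity well above background was 13.4 to 21.5, depending on the array. The Gad1 spot of CRL replicate 2 carried an outlier mark and was left out, so Gad1 has 2 CRL arrays. Atpif1 itself read 6.19 to 6.34 on the CRL arrays, and 5.20 and 5.53 on IF1-KO replicates 2 and 3. On the IF1-TG arrays it read 6.42, 6.38 and 6.51, a difference of 0.16 (SE 0.27, limma) from CRL mice. Whether this probe reads the human transgene was not tested. The array labelled IF1-KO replicate 1 read 6.43, above all CRL arrays and within the range of the IF1-TG arrays. The main results on IF1-KO mice are also given without that array. The 9 arrays were spread over 3 slides, of which slide 1 had only IF1-TG replicates 1 and 2. On slide 2 were IF1-KO 1, CRL 1, CRL 2 and IF1-TG 3, and on slide 3 were IF1-KO 2, IF1-KO 3 and CRL 3.

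**Figure D1:**
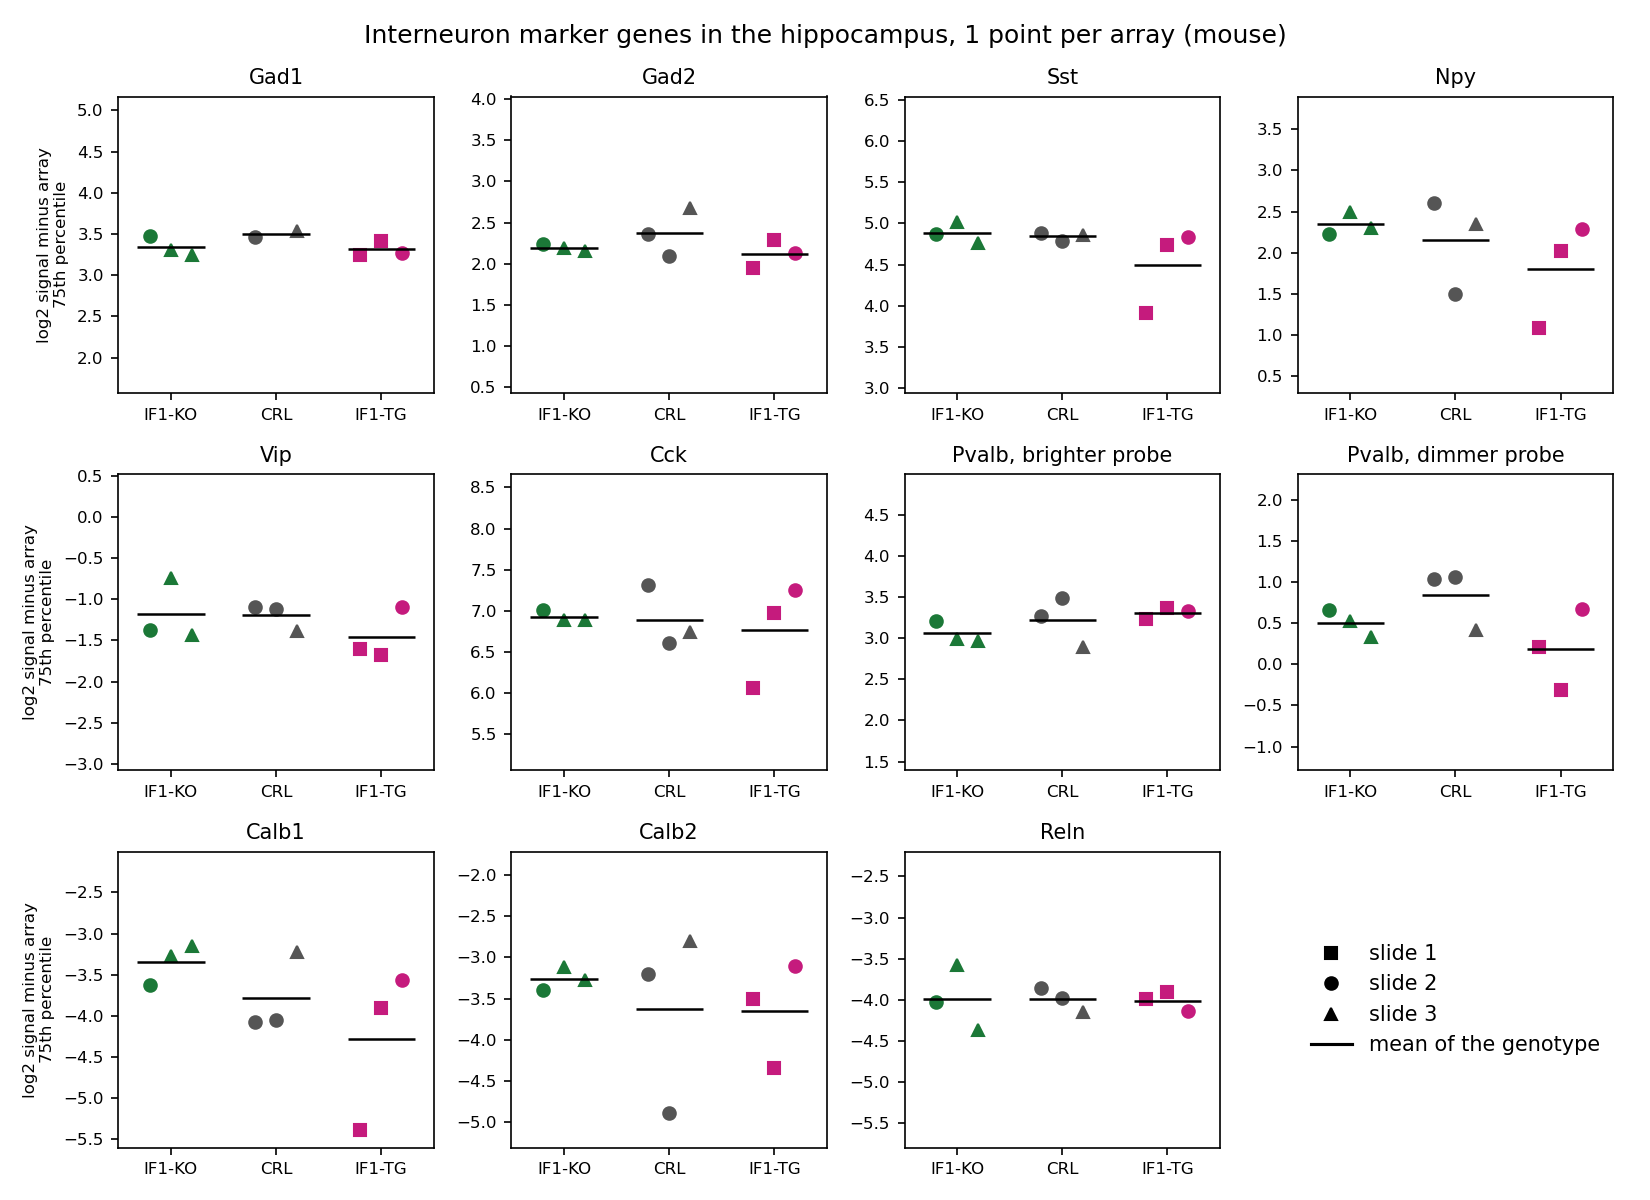
Values of the 11 probes on each array (log2 processed signal minus the 75th percentile of the array), by genotype, with symbols for the slide and a bar for the mean of the genotype. Every panel spans the same range of log2 units. Sst, Npy, Cck and Calb1 have their lowest point on IF1-TG replicate 1, and Gad1 and Pvalb (brighter probe) vary least.

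Few of the interneuron genes differed between genotypes. A gene was counted as past the thresholds when 1 of its probes differed by at least 1.5-fold with an unadjusted P below 0.05 in limma, the rule stated in the methods of the study. Pvalb alone, through its dimmer probe, passed in IF1-TG versus CRL mice (1 of 10 genes), where 5.59% of all genes passed. None of the 10 genes passed in IF1-KO versus CRL mice, where 1.34% of all genes did, nor in IF1-TG versus IF1-KO mice, where 4.7% did. With Benjamini-Hochberg adjustment over all probes, no gene of the whole array was below 0.05 in any comparison, and every gene said here to pass, rise or fall does so by the unadjusted thresholds alone. The smallest adjusted P of limma on the brightest probes of the 10 genes was 0.695 (IF1-TG versus CRL), 1 (IF1-KO versus CRL) and 0.713 (IF1-TG versus IF1-KO).

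On the brightest probe, 9 of the 10 genes had a lower mean in IF1-TG than in CRL mice, and 9 of 10 were lower on average than in IF1-KO mice, with Pvalb the exception in both. The 2 comparisons share the IF1-TG arrays. Their median log2 differences were -0.22 and -0.23, against medians of -0.00067 and 0.0066 over all genes, and the median in IF1-KO versus CRL mice was 0.025. The SD between replicate arrays of the median deviation of these genes was 0.20. The medians were about as large as this spread, which is that of single arrays and not of differences between genotype means. The medians were not tested. With the array labelled IF1-KO replicate 1 set aside, 8 of 10 genes were lower than in IF1-KO mice, with a median of -0.25, and the IF1-KO versus CRL median was 0.03. Without IF1-TG replicate 1 the medians of IF1-TG mice were -0.043 and -0.060. Within slide 2, which holds IF1-TG replicate 3, the median was 0.0014 against CRL mice, and it was 0.059 against the array labelled IF1-KO replicate 1, the only IF1-KO array of that slide.

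**Figure D2:**
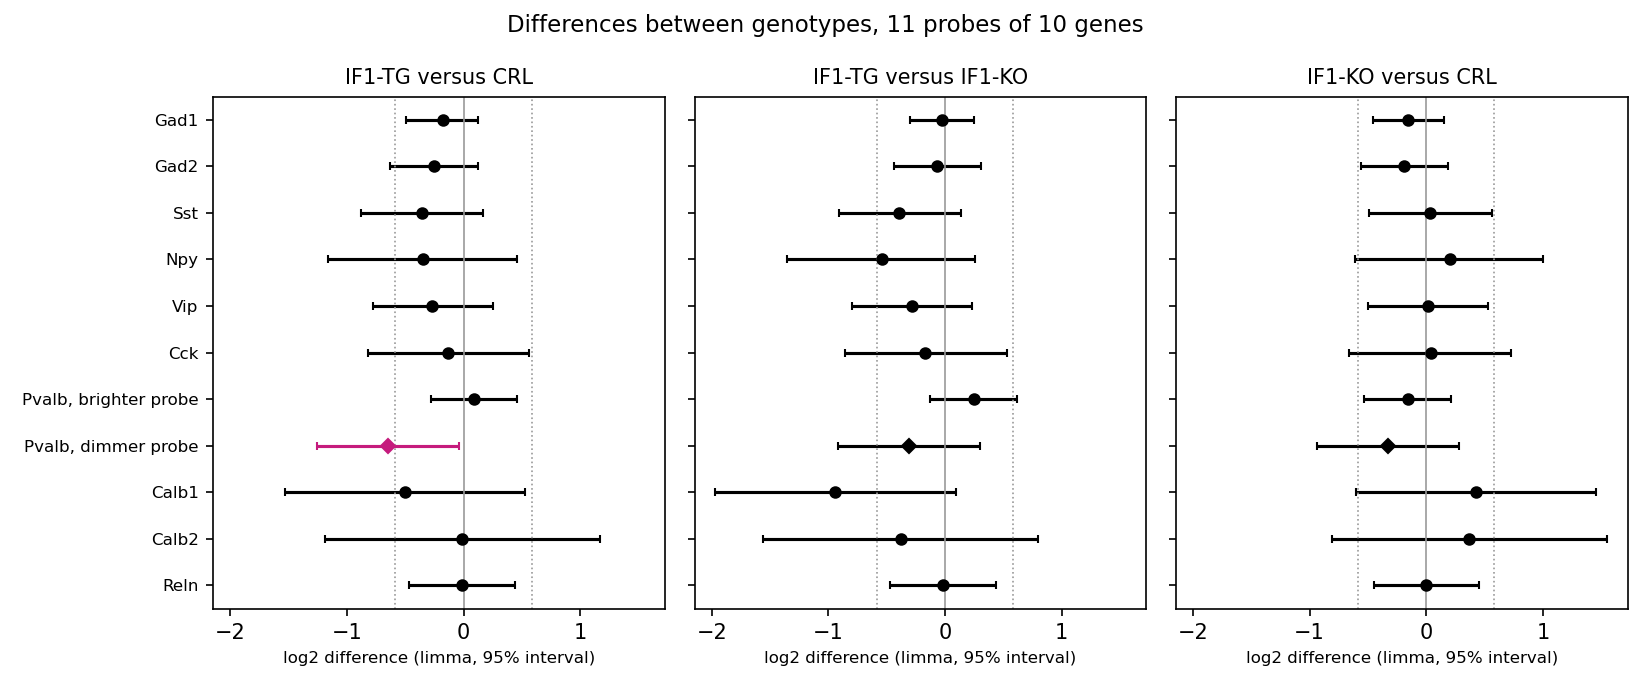
Log2 differences between genotypes with 95% intervals from limma for the 11 probes, circles for the brightest probe of a gene and diamonds for the second Pvalb probe. Dotted lines mark 1.5-fold, and the coloured point is the only one past both thresholds (Pvalb, dimmer probe, IF1-TG versus CRL, -0.65). The intervals of Calb1 and Calb2 are the widest.

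Gad1 and Gad2, the enzymes of GABA synthesis, differed between genotypes by 0.25 log2 units or less. Gad1 read 3.47, 3.30 and 3.25 in IF1-KO, 3.46 and 3.54 in CRL, and 3.25, 3.42 and 3.27 in IF1-TG mice. Its IF1-TG arrays lay below both CRL arrays, a separation that 12.1% of all genes showed in this comparison, but the difference was small (-0.18, SE 0.13, adjusted P = 0.724, limma, 95% interval -0.49 to 0.12). When outlier marks were ignored, so that CRL replicate 2 counted, the difference was -0.053. Gad1 varied little between replicates, with an SD within genotype of 0.10, and only 8.65% of genes varied less.

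Gad2 read 2.24, 2.19 and 2.15 in IF1-KO, 2.36, 2.09 and 2.68 in CRL, and 1.95, 2.29 and 2.13 in IF1-TG mice. The groups overlapped, and the highest value was CRL replicate 3 (IF1-TG versus CRL -0.25, SE 0.16, adjusted P = 0.695, limma). CRL replicate 3 also had the highest summed level of 8 striatal marker genes, 21.9 times the reference level against 13.5 to 18.2 on the other arrays, and 7 of the 8 cleared background on each of the 9 arrays. Summed over these markers, the ranges were 14.6 to 21.9 in CRL, 13.5 to 15.8 in IF1-KO and 14.0 to 18.0 in IF1-TG mice. Striatal neurons are GABAergic and express both enzymes, and the part of such RNA in the Gad2 values was not tested. Gad1 and Gad2 varied together across arrays (Pearson r = 0.87 over 8 arrays, which share slides, and 0.84 without IF1-TG replicate 1).

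Beyond Gad1 and Gad2, 9 genes that package, take up or break down GABA or carry its precursors were measured. Slc32a1, the vesicular GABA transporter, read between 4.45 and 4.87 on the 8 arrays that measured it, and its differences stayed within 0.29 (SE 0.12) in size. Of the 9 genes, 2 passed the thresholds in IF1-TG versus CRL mice and 1 in IF1-KO versus CRL mice, where 5.59% and 1.34% of all genes did, each through a dimmer probe. Slc38a1, a glutamine transporter, was higher in IF1-TG mice by 0.61 (SE 0.26, adjusted P = 0.581, limma) on that probe and differed by -0.40 (SE 0.25) on its brightest. This call was kept without CRL replicate 3 or IF1-TG replicate 3 and lost without any of the other 7 arrays (0.33 without CRL replicate 1, otherwise 0.54 to 0.61), and it was also lost with slide as a fixed block (0.50) or median centring (0.59), and, at 0.61, with the replicate number as a block, without the filter on dim probes or with only the 2 genotypes fitted. Abat, the enzyme that degrades GABA, passed in both comparisons on a probe that was well above background on all 3 CRL arrays and on no array of IF1-KO or IF1-TG mice, so that only a bound holds. The filter kept this probe through the CRL arrays alone, where it is high. Both counts above include Abat, so they rest in part on this selection. Relative to the lowest signal well above background on each array, CRL mice were at least 1.47-fold higher than IF1-KO mice (adjusted P = 1, limma), and no bound above 1 could be given against IF1-TG mice. The brightest Abat probe differed by -0.037 in IF1-KO and by 0.082 in IF1-TG mice. The call of the dim Abat probe against IF1-TG mice was lost with slide as a fixed block, quantile normalization, the trend and robust options of limma, or without CRL replicate 1 or 3, and both calls were lost after normexp correction with quantile normalization.

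The neuropeptide Sst was lowest on 1 array. Somatostatin is the inhibitory peptide of dendrite-targeting interneurons. Its values were 4.87, 5.02 and 4.76 in IF1-KO, 4.89, 4.79 and 4.86 in CRL, and 3.91, 4.74 and 4.84 in IF1-TG mice. IF1-TG replicate 1 stood apart, while the other 8 arrays spanned 4.74 to 5.02. The array design repeats the Sst probe in 10 spots, of which 8 to 10 per array carried no outlier mark, and the SD between spots of an array was 0.03 to 0.17. On IF1-TG replicate 1 all 10 spots read between 3.79 and 4.07, and the lowest spot on any other array read 4.32. The low value was therefore shared by all spots of that array. The difference between IF1-TG and CRL mice was -0.36 (SE 0.23, adjusted P = 0.695, limma) with all arrays and -0.062 (SE 0.13) without IF1-TG replicate 1.

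**Figure D3:**
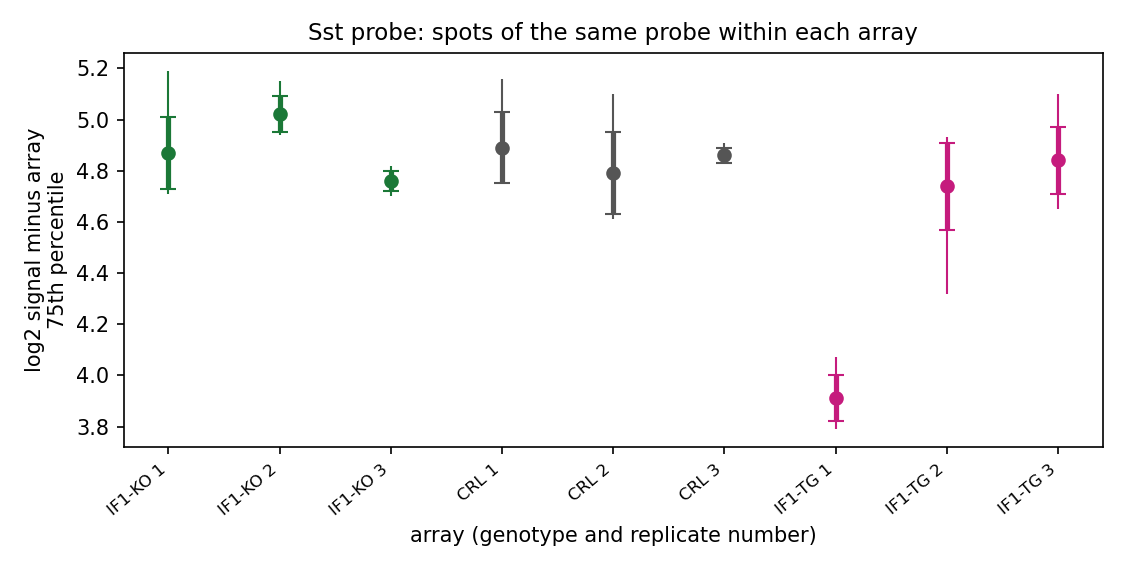
The Sst probe on each array, as the mean of its 8 to 10 spots (point), their SD (thick bar) and their range (thin line), in log2 signal minus the 75th percentile of the array. IF1-TG replicate 1 lies at 3.91 with a spot SD of 0.09, below every spot of the other arrays.

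Npy, the neuropeptide of a large interneuron class and a brake on glutamate release, read 2.23, 2.5 and 2.30 in IF1-KO, 2.60, 1.5 and 2.35 in CRL, and 1.09, 2.02 and 2.29 in IF1-TG mice. IF1-TG replicate 1 and CRL replicate 2 were low, and the IF1-KO arrays lay close together. The difference between IF1-TG and CRL mice was -0.35 (SE 0.35, adjusted P = 0.812, limma) and 0.0031 without IF1-TG replicate 1. Cck, the peptide cholecystokinin, read 7.01, 6.89 and 6.89 in IF1-KO, 7.32, 6.61 and 6.75 in CRL, and 6.07, 6.97 and 7.26 in IF1-TG mice, and here too IF1-TG replicate 1 was the lowest array. The Cck difference between IF1-TG and CRL mice was -0.13 (SE 0.30) with all arrays and 0.22 without that array.

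Vip marks interneurons that inhibit other interneurons. It read -1.37, -0.74 and -1.43 in IF1-KO, -1.09, -1.12 and -1.38 in CRL, and -1.61, -1.68 and -1.09 in IF1-TG mice. Both low IF1-TG values came from slide 1, the groups overlapped, and the difference between IF1-TG and CRL mice was -0.27 (SE 0.23, adjusted P = 0.766, limma) overall and 0.0089 within slide 2.

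The calcium-binding proteins gave the only gene past the thresholds, and the widest scatter, that of Calb1 and Calb2 on dim probes. Parvalbumin buffers calcium in fast-spiking interneurons. On its brighter probe, Pvalb read 3.21, 2.99 and 2.97 in IF1-KO, 3.27, 3.49 and 2.89 in CRL, and 3.23, 3.36 and 3.33 in IF1-TG mice. The IF1-TG arrays lay above the IF1-KO arrays, a separation shown by 13.4% of all genes, by 0.25 (SE 0.16, limma), or 0.32 with the array labelled IF1-KO replicate 1 set aside, and differed from CRL by 0.09 (SE 0.16). The dimmer probe read 0.66, 0.52 and 0.33 in IF1-KO, 1.03, 1.06 and 0.42 in CRL, and 0.21, -0.31 and 0.67 in IF1-TG mice. On it, IF1-TG mice fell by 0.65 relative to CRL mice (SE 0.27, 1.57-fold, adjusted P = 0.571, limma), with overlapping arrays. The call was kept without CRL replicate 3 or IF1-TG replicate 3 and lost without any of the other 7 arrays (-0.66 to -0.40), and within slide 2 the difference was -0.38. It was also lost with slide as a fixed block (-0.31), after normexp correction with quantile normalization (-0.54) and, at -0.65, with the replicate number as a block or with only the 2 genotypes fitted.

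The difference between the 2 Pvalb probes was also compared. Within each array, the value of the dimmer probe minus that of the brighter was -2.55, -2.47 and -2.63 in IF1-KO, -2.23, -2.43 and -2.47 in CRL, and -3.01, -3.67 and -2.66 in IF1-TG mice. All 3 IF1-TG arrays had a wider gap than any other array. The mean of this quantity differed by -0.74 from CRL and by -0.56 from IF1-KO mice, which is given as a description, since it was examined after the values were seen and 3 against 3 arrays cannot give an exact two-sided permutation P below 0.1. IF1-TG replicates 1 and 2, with the widest gaps, were the arrays of slide 1, and IF1-TG replicate 3 (-2.66) lay close to IF1-KO replicate 3 (-2.63).

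Calb1, the calbindin also made by dentate granule cells, read -3.62, -3.27 and -3.15 in IF1-KO, -4.07, -4.05 and -3.22 in CRL, and -5.39, -3.90 and -3.56 in IF1-TG mice. The range over the 9 arrays was 4.72-fold, with IF1-TG replicate 1 at the bottom. The Calb1 intensity there was 38.8, and the lowest intensity well above background on that array was 17.2. The IF1-TG mice differed by -0.94 from IF1-KO mice (SE 0.45, 1.91-fold, adjusted P = 0.713, limma), the largest difference among the 10 genes, and by -0.38 (SE 0.29) without IF1-TG replicate 1. Relative to CRL mice the IF1-TG difference was -0.50 (SE 0.45) with all arrays and 0.05 without IF1-TG replicate 1. Leaving out the array labelled IF1-KO replicate 1 gave -1.07 and no call, and leaving out IF1-TG replicate 3 gave -1.30, which passed the thresholds. With slide as a fixed block the direction turned (0.20), and within slide 2 IF1-TG replicate 3 differed by 0.058 from the array labelled IF1-KO replicate 1. Dentate granule cell markers, 7 genes that each array measured well above background, summed to 4.76 to 9.24 in IF1-KO, 9.29 to 11.6 in CRL and 6.63 to 8.12 in IF1-TG mice, and their part in the Calb1 values was not tested.

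Calb2, calretinin, read -3.39, -3.12 and -3.28 in IF1-KO, -3.20, -4.89 and -2.80 in CRL, and -3.50, -4.34 and -3.10 in IF1-TG mice. CRL replicate 2 and IF1-TG replicate 2 were low and the remaining arrays close together. The differences from CRL mice, -0.012 in IF1-TG and 0.37 in IF1-KO mice (both SE 0.52, limma), were small beside an SD within genotype of 0.74, which exceeded that of 96.6% of genes. Reln, the secreted reelin, read -4.03, -3.57 and -4.37 in IF1-KO, -3.85, -3.98 and -4.15 in CRL, and -3.99, -3.90 and -4.13 in IF1-TG mice. Its genotype means were -3.99, -3.99 and -4.01, with a 95% interval of -0.47 to 0.44 for IF1-TG versus CRL, which does not reach 1.5-fold.

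Between IF1-KO and CRL mice, the 10 genes ranged from -0.19 (Gad2) to 0.43 (Calb1) and none of them had arrays that did not overlap, against 8.06% of all genes. With the array labelled IF1-KO replicate 1 left out, Calb1 differed by 0.57 (SE 0.53), Calb2 by 0.43 (SE 0.61) and Pvalb on its brighter probe by -0.23 (SE 0.18), and no gene passed. The 95% intervals reached 0.31 log2 units to either side for Gad1 but 1.18 for Calb2, and those of Npy, Cck, Calb1 and Calb2 reached past 1.5-fold in both directions.

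**Figure D4:**
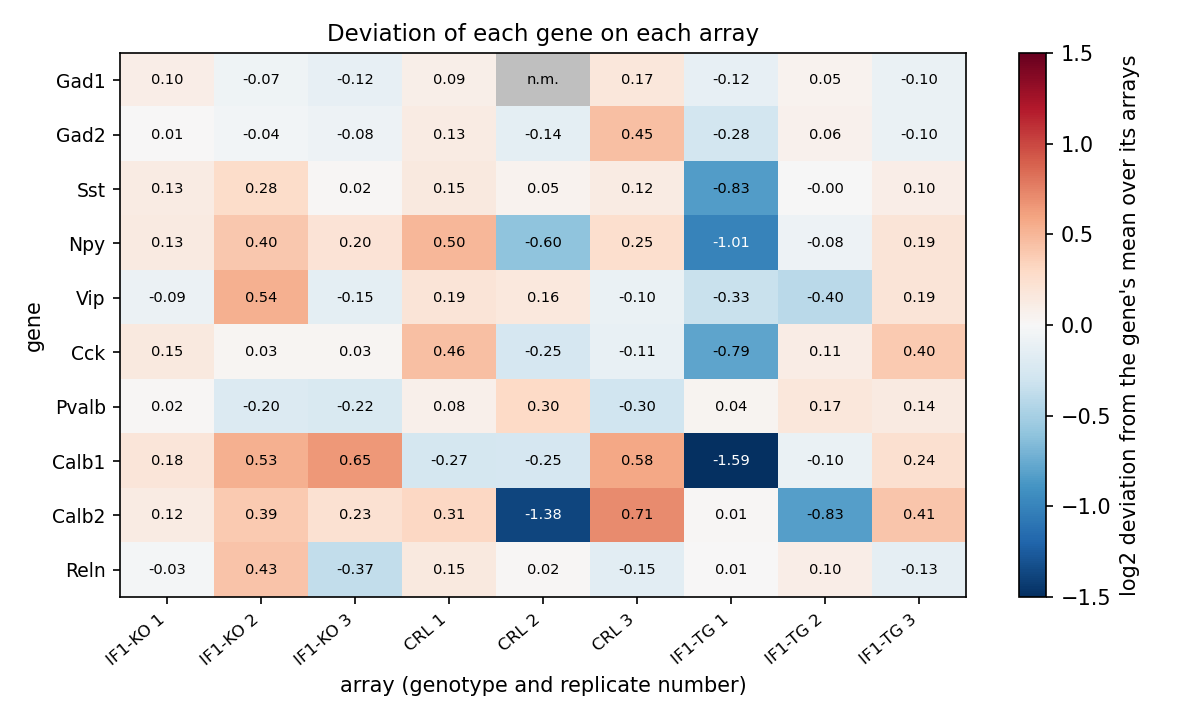
Deviation of each gene (brightest probe) on each array from the mean of that gene over its arrays, in log2 units, blue for below and red for above. IF1-TG replicate 1 is blue for Sst, Npy, Cck and Calb1 (Calb1 at -1.59), CRL replicate 2 for Npy and Calb2 (-1.38), and n.m. marks the Gad1 spot that was left out.

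Seen by array, the lowest values came most often from IF1-TG replicate 1. It was the lowest array for 5 of the 10 genes (Gad2, Sst, Npy, Cck and Calb1) and for 18.4% of all genes, the largest share of any array, while the median deviation of all genes on it was 0 and that of the 10 genes was -0.31. The 12 interneuron markers measured on every array, 9 of these genes among them, summed to 123 there against 169 to 237 on the other arrays. This is a sum of linear signals in which Cck, the brightest gene, weighs most. It therefore largely repeats the low values already named and is no separate measure of interneurons. On the same array, 7 choroid plexus markers summed to 252, against 11.4 to 192 elsewhere, and 5 CA1 pyramidal cell markers to 21.7, against 33.1 to 41.5. By genotype, the choroid plexus sum ranged over 11.4 to 141 in IF1-KO, 15.8 to 192 in CRL and 14.2 to 252 in IF1-TG mice, and 6 of its 7 genes were well above background on all arrays. The CA1 sum ranged over 33.5 to 37.4, 33.1 to 41.5 and 21.7 to 36.6 in the same order, with all 5 genes above background throughout. CRL replicate 2, low for Npy and Calb2, had the second highest choroid plexus sum (192) and the highest sum of 5 blood markers (202, against 9.16 to 44.4). The part of tissue composition in these values was not tested.

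Among the 5 genes that were lowest on IF1-TG replicate 1, Pearson r over the 9 arrays ranged from 0.38 (Cck and Gad2) to 0.87 (Calb1 and Sst), and without that array from -0.22 (Calb1 and Cck) to 0.62 (Cck and Npy). Genes chosen for a shared low array correlate in part through that choice. Calb2 and Pvalb went opposite ways (r = -0.75, and -0.76 without that array). These correlations describe 9 arrays that share slides, and carry no test.

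Among 16887 genes searched, the 1 whose pattern over the 9 arrays was nearest to Sst was Hnrnpu (r = 0.988), that nearest to Npy was Fnip1 (0.989), and those nearest to Cck and Calb1 were Cox5b (0.982) and Il4ra (0.989). For Gad2 it was Drd2 (0.947), a dopamine receptor of striatal and hilar mossy cells, and for Pvalb it was Tomm34 (0.957). Vrk1 was nearest to Gad1 (0.992 over 8 arrays), 1700092M07Rik to Vip (0.959), Btn2a2 to Calb2 (0.956) and Arfgef3 to Reln (0.961). With so many genes and so few arrays, high values of r occur for any gene.

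The promoters of the peptide genes are shown because cyclic AMP response elements are textbook features of peptide gene promoters. The part of such elements in the values given here was not tested. The table of RefSeq promoters used here, on GRCm38.p6, covered 8 of the 10 genes, all but Calb1 and Calb2. The stretches run from base -85 to base -6 relative to the start, on the strand of the gene, with TGACG on either strand in capitals.
Sst, chr16:23890850-23890929, minus strand: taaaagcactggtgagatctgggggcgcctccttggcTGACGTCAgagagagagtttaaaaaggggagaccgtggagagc
Vip, chr10:5639133-5639212, plus strand: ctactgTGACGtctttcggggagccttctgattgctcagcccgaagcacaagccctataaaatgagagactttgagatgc
Cck, chr9:121495700-121495779, minus strand: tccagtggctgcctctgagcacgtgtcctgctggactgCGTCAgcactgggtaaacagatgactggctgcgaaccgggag
Npy, chr6:49822625-49822704, plus strand: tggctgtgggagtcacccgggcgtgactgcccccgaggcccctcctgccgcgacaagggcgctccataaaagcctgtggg
Over the 250 bases before the start, the full palindrome TGACGTCA occurred in Sst (bases -48 to -41) and in no other of the 8 genes, and 1.55% of 32851 promoters hold it. The shorter TGACG, which the palindrome contains on both strands, was also found in Vip, Cck and Gad2, and 17.8% of promoters hold it. A match is a description of the letters, and none in Npy says only that they are absent from this window.

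The receptors of these peptides and of reelin were measured for 15 genes, and Npy2r was the 1 gene that passed, in both comparisons of IF1-TG mice (5.59% of all genes passed against CRL and 4.7% against IF1-KO mice). Npy2r is the presynaptic receptor by which neuropeptide Y lowers transmitter release. On its brighter probe it read 0.25, -0.24 and 0.11 in IF1-KO, 0.21, -0.11 and 0.02 in CRL, and -1.11, -1.24 and -0.05 in IF1-TG mice, a fall of 0.84 (SE 0.30, adjusted P = 0.544, limma) relative to CRL mice. Both low values came from slide 1, and IF1-TG replicate 3 lay among the other genotypes. Within slide 2 the brighter probe differed by -0.098, with slide as a fixed block by -0.15, without IF1-TG replicate 1 by -0.68, without IF1-TG replicate 2 by -0.62 and without CRL replicate 1 by -0.76, none of which passed. Against IF1-KO mice the fall was also 0.84, and that call was lost without the array labelled IF1-KO replicate 1 (-0.73), IF1-KO replicate 3 (-0.81) or either IF1-TG array of slide 1 (-0.68 and -0.62), and with slide as a fixed block (-0.20). Within slide 2 the difference from the array labelled IF1-KO replicate 1 alone was -0.30.

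On the dimmer Npy2r probe all 3 IF1-TG arrays lay below the others, a separation that, on the brightest probe, 12.1% of all genes showed against CRL and 13.4% against IF1-KO arrays. It read -1.73, -1.94 and -1.71 in IF1-KO, -1.15, -1.80 and -1.63 in CRL, and -3.06, -2.58 and -2.46 in IF1-TG mice. It fell by 1.17 relative to CRL (SE 0.21, adjusted P = 0.297) and by 0.91 relative to IF1-KO mice (SE 0.21, adjusted P = 0.66, limma). Within slide 2, IF1-TG replicate 3 was lower by 0.98 than the CRL arrays. The difference from IF1-KO mice was -0.88 without the array that carries the label IF1-KO replicate 1, and with slide as a fixed block it was -0.75 and did not pass. Thalamus markers, 7 measured genes of which 6 were above background on all arrays, summed to 2.36 to 3.70 in IF1-KO, 2.75 to 5.61 in CRL mice, and 4.33 and 2.55 on IF1-TG replicates 1 and 3. The sum was highest of all arrays on IF1-TG replicate 2. Of the 7 markers, 2 passed higher in IF1-TG versus CRL and 1 in IF1-TG versus IF1-KO mice, beside 5.59% and 4.7% of all genes. Their part in the values of IF1-TG mice was not tested.

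Among the remaining receptors, Sstr2, a somatostatin receptor, differed by -0.62 (SE 0.27) and Npy1r, the postsynaptic neuropeptide Y receptor, by -0.071 (SE 0.25) between IF1-TG and CRL mice. Cckbr, the brain cholecystokinin receptor, differed by -0.23 (SE 0.38), Vipr1, a receptor of Vip, by -0.013 (SE 0.15), and Lrp8, a reelin receptor, by 0.027 (SE 0.11). None of these passed. The median over the 15 receptors was -0.17 in IF1-TG versus CRL mice, and none passed in IF1-KO versus CRL mice.

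Of 16 other neuropeptide precursors measured, Pdyn (prodynorphin, the precursor of the opioid dynorphins) was the 1 that passed in IF1-KO versus CRL and in IF1-TG versus CRL mice, where 1.34% and 5.59% of all genes did, and it was lower in both IF1 genotypes. It read -0.13, 0.90 and 0.69 in IF1-KO, 1.73, 1.32 and 1.74 in CRL, and 0.36, 0.11 and 0.59 in IF1-TG mice, so every CRL array lay above all others (8.06% of all genes had no overlap between IF1-KO and CRL arrays, and 12.1% none between IF1-TG and CRL arrays). The fall was 1.11 in IF1-KO (SE 0.27, adjusted P = 1) and 1.25 in IF1-TG mice (SE 0.27, adjusted P = 0.365, limma), and the 2 comparisons share the CRL arrays. Leaving out the array labelled IF1-KO replicate 1 gave an IF1-KO fall of 0.80, which passed. Within slide 2 the fall of IF1-TG mice was 0.94, and within slide 3 that of IF1-KO mice was 0.95. On slide 2 the only IF1-KO array was the one labelled replicate 1, which lay 1.66 below the CRL arrays. In the hippocampus Pdyn is best known from dentate granule cells, whose marker sum was, as given above, also higher on every CRL array than on any other (9.29 to 11.6 against 4.76 to 9.24), and their part in the Pdyn values was not tested. The summed level of the 8 striatal markers, given with Gad2, was 14.6 to 21.9 in CRL, 13.5 to 15.8 in IF1-KO and 14.0 to 18.0 in IF1-TG mice. Of these 8, 2 passed lower in IF1-KO mice (Six3 and Adora2a) and 1 in IF1-TG mice (Adora2a), beside 1.34% and 5.59% of all genes, with list medians of -0.42 and -0.38, and both genes were highest on CRL replicate 3. Six3 was well above background on 1 of 3 IF1-KO arrays. The 7 dentate granule cell markers had medians of -0.26 and -0.48 and none passed. The sum of 4 pituitary markers was 0.58 to 0.748 in CRL, 0.712 to 0.831 in IF1-KO and 0.527 to 0.832 in IF1-TG mice. Of these 4, Gh and Prl were well above background on all CRL arrays and on no other array, the remaining 2 were so on every array, and Cga and Tshb were not kept. The remaining 2 make up most of the sum. Gh and Prl, kept through the CRL arrays alone, passed lower in both IF1 genotypes, beside 1.34% and 5.59% of all genes. CRL mice were at least 3.59-fold (Gh) and 4.1-fold (Prl) above IF1-KO mice, and at least 2.44-fold and 2.79-fold above IF1-TG mice. The part of these tissues in the Pdyn values was not tested either.

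Pmch, the precursor of melanin-concentrating hormone, was the only other precursor past the thresholds, 1 of 16 beside 4.7% of all genes in that comparison, at a level 1.42 higher in IF1-TG mice than in the IF1-KO group (SE 0.48, adjusted P = 0.66, limma), and 1.7 higher without the array labelled IF1-KO replicate 1. Its values were -6.26, -6.59 and -7.57 in IF1-KO and -4.92, -4.88 and -6.34 in IF1-TG mice, both higher values came from slide 1, and within slide 2 the difference from the array labelled IF1-KO replicate 1, the only one of that genotype there, was -0.080. The call was lost when IF1-KO replicate 3 (1.04) or either of IF1-TG replicates 1 (1.2) and 2 (1.18) was left out, with slide as a fixed block (0.067), and after normexp correction with quantile normalization (0.48). The probe was well above background on 2 of the 3 arrays of each of these genotypes, so its values lie partly at background.

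**Figure D5:**
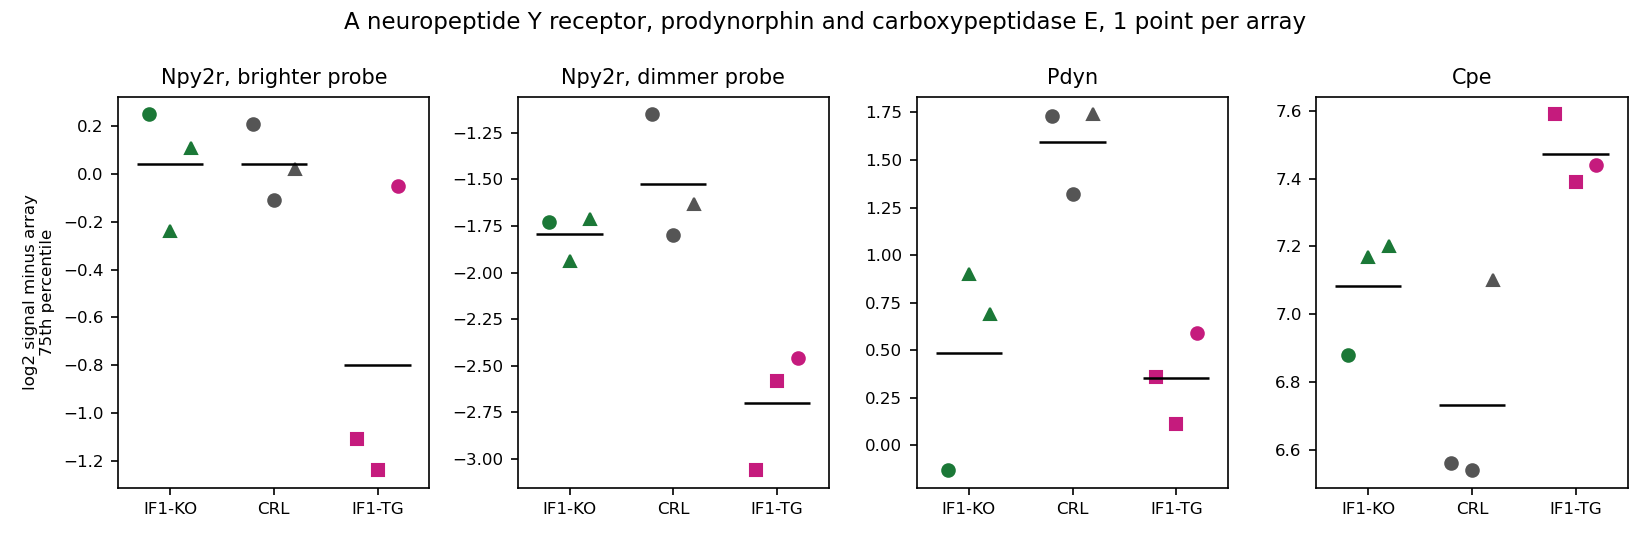
Values of Npy2r (both probes), Pdyn and Cpe on each array in log2 signal minus the 75th percentile of the array, with symbols for the slide (square 1, circle 2, triangle 3) and a bar for the genotype mean. The vertical scales differ between panels. Npy2r is low on all 3 IF1-TG arrays on the dimmer probe and on 2 of them on the brighter, Pdyn is highest on the CRL arrays, and Cpe is highest on the IF1-TG arrays.

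Of 13 genes for peptide processing and dense core granules, 2 passed in IF1-TG versus CRL mice, where 5.59% of all genes did. Cpe, carboxypeptidase E, which trims peptide precursors, read 6.56, 6.54 and 7.10 in CRL, 6.88, 7.17 and 7.20 in IF1-KO and 7.59, 7.39 and 7.44 in IF1-TG mice. Every IF1-TG array was above all others, as for 12.1% of genes that separated from CRL and 13.4% from IF1-KO arrays in either direction, and the rise relative to CRL mice was 0.74 (SE 0.18, adjusted P = 0.378, limma), 0.89 within slide 2. After quantile normalization it was 0.51, and 0.48 with normexp correction before it, and neither passed. Cadps2, which primes dense core vesicles, fell by 0.65 (SE 0.21, adjusted P = 0.506, limma) on a dimmer probe and differed by -0.076 on its brightest, and the call was lost without CRL replicate 1 (-0.50) or IF1-TG replicate 3 (-0.46).

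Of 22 regulators of interneuron identity measured, 2 passed in IF1-KO versus CRL mice, 2 in IF1-TG versus CRL and 1 in IF1-TG versus IF1-KO mice, all higher and all through a probe other than the brightest, beside 1.34%, 5.59% and 4.7% of all genes. Npas1, a transcription factor of forebrain interneurons, was higher by 0.83 (SE 0.29) in IF1-KO than in CRL mice on such a probe and by 0.20 (SE 0.12) on its brightest. Npas3, a related factor, was higher by 0.79 (SE 0.29) in IF1-KO and by 0.83 (SE 0.29) in IF1-TG than in CRL mice on 1 probe, against -0.065 and 0.094 on the brightest. Sp8, of Vip and reelin lineages, was higher by 0.90 (SE 0.28) in IF1-TG mice on 1 probe and differed by -0.74 (SE 0.37) on its brightest. The Npas1 call was lost without IF1-KO replicate 2 (0.73) or CRL replicate 2 (0.51), and the difference was 0.95 without the array labelled IF1-KO replicate 1. Those of Npas3 were lost without CRL replicate 1 (0.66 and 0.71) or CRL replicate 2 (0.60 and 0.65), and also without the array labelled IF1-KO replicate 1 (0.69) or IF1-KO replicate 3 (0.81) in the first comparison and without IF1-TG replicate 1 (0.73) or 3 (0.70) in the other. The first was also lost with slide as a fixed block (0.68) and after normexp correction with quantile normalization (0.58), a setting that also ended both Sp8 calls (0.46 and 0.35). Against IF1-KO mice Sp8 was higher by 0.69, a call lost without any 1 of 4 arrays, the one labelled IF1-KO replicate 1 (0.55), IF1-KO replicate 2 (0.71) and IF1-TG replicates 1 (0.59) and 2 (0.71). Lhx6, the regulator of parvalbumin and somatostatin lineages, ranged from 3.43 to 4.36 and differed by 0.38 (SE 0.18) from IF1-KO to IF1-TG mice.

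Among 29 further subtype markers, Npy2r, which also belongs to the receptors, was the 1 that passed, in both IF1-TG comparisons, where 5.59% and 4.7% of all genes did. Markers of neurogliaform and serotonin-receptor classes such as Nos1 (0.42, SE 0.18) and Htr3a (-0.0098, SE 0.16) did not pass in IF1-TG versus CRL mice, nor did the peptides Pnoc (-0.41, SE 0.18), Penk (-0.72, SE 0.52) and Tac1 (-0.38, SE 0.35). The medians over these 29 markers were -0.019 in IF1-TG and -0.011 in IF1-KO mice relative to CRL mice, and 0.011 between the IF1 genotypes.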

How the data were processed

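The deposited intensities, per the file headers, came from Agilent Feature Extraction 10.7.3.1, which had subtracted background from each spot of a one-colour array, with no normalization between arrays, and had set the marks for outliers, saturation and signal well above background that were used here. Outlier and control spots were left out, spots of a probe averaged, and processed intensity expressed as log2 minus the 75th percentile of the array. Of 39429 probes, 27993 (21906 gene names, 17092 matched to RefSeq) were kept. All 9 arrays entered 1 limma 3.58.1 model (R 4.3.3) with genotype, P values were adjusted by Benjamini-Hochberg over all kept probes, and the script was tested on simulated data. A gene is given by its brightest kept probe. Genes of the lists were named when a probe passed the thresholds, up to the 4 with the smallest P per list and comparison, and other list genes named were chosen after their values were seen. The genes, lists and thresholds were chosen with earlier results of these data known. Each array is 1 mouse, and the number of arrays limits the precision. Replicate numbers shared by genotypes did not pair the arrays. Slide, read from the array barcodes, entered only the alternatives, so the reported differences and P values are not adjusted for it. Alternatives covered normalization, probe filters, blocks and each array left out.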

Additional observations from a re-analysis of the deposited data

How the results depend on the processing

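The count of these genes past the thresholds in IF1-TG versus CRL mice (1, Pvalb) was 0 under normexp correction with quantile normalization, with slide as a fixed block, with only the 2 genotypes compared and with the mean of the probes of a gene, and 0 to 1 over arrays left out in turn. In IF1-TG versus IF1-KO mice it was 1 (Calb1) under normexp with quantile normalization and 0 to 1 with arrays left out. With the replicate number as a block, which does not pair the arrays (correlations of same-numbered deviations -0.17 to 0.12), the counts were 0 and 1, with the same differences for Pvalb and Calb1. The cause of these changes was not tested. In IF1-KO versus CRL mice the count was 0 throughout. The median differences of IF1-TG mice became 0.047 against CRL and 0.075 against IF1-KO with slide as a fixed block, were 0.0014 and 0.059 within slide 2, and ranged with arrays left out from -0.33 to -0.043 and from -0.44 to -0.06.

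Slide as a fixed block, in which IF1-TG replicates 1 and 2 alone on slide 1 carry no information on genotype, turned Npy (0.22), Pvalb (-0.0067), Vip (0.10), Cck (0.31), Calb1 (0.43) and Calb2 (0.77) against CRL, and Gad2 (0.064), Npy (0.10), Vip (0.086), Cck (0.22), Calb1 (0.20) and Calb2 (0.64) against IF1-KO mice. As a random block it turned Calb2 (0.035). The mean of both probes turned Pvalb (-0.28 and -0.033). In IF1-KO versus CRL mice, normexp with quantile normalization turned Gad1 (0.00058), Sst (-0.014) and Vip (-8.8e-05), quantile normalization alone Vip (-0.0038) and Reln (-0.024), and median centring Reln (-0.0094). None of these 21 values passed the thresholds.

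Leaving out 1 array turned, in IF1-TG versus CRL mice, Npy (-0.68 to 0.0031), Pvalb (-0.074 to 0.23), Cck (-0.38 to 0.22), Calb1 (-0.87 to 0.05), Calb2 (-0.64 to 0.40) and Reln (-0.093 to 0.055). In IF1-KO versus CRL mice it turned Sst (-0.035 to 0.094), Npy (-0.13 to 0.42), Vip (-0.20 to 0.14), Cck (-0.11 to 0.25), Calb2 (-0.26 to 0.78) and Reln (-0.21 to 0.19). In IF1-TG versus IF1-KO mice it turned Gad1 (-0.08 to 0.037), Gad2 (-0.15 to 0.017), Cck (-0.41 to 0.18) and Reln (-0.21 to 0.19). Over all genes, the counts past the thresholds (1225, 294 and 1030 in IF1-TG versus CRL, IF1-KO versus CRL and IF1-TG versus IF1-KO mice) were 563, 160 and 557 under normexp correction with quantile normalization and 4526, 723 and 3114 of 31093 genes without the filter on dim probes. With slide as a fixed block the first was 2175, with probes above background on all arrays the second was 177, and without CRL replicate 3 the second was 1006. It became 178 on leaving out CRL replicate 1, and 452 with the array labelled IF1-KO replicate 1 set aside. The first became 1906 on leaving out IF1-TG replicate 2. The third fell to 604 on leaving out IF1-KO replicate 2, and reached 1703 or 1583 when IF1-TG replicate 2 or 3 was dropped.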
